A study of Rattus norvegicus with 6 samples.

Results

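Branched-chain amino acid catabolism was described in rat myocardium by 10 genes, chosen by name because each encodes an enzyme or regulator of the pathway: Bcat1, Bcat2, Bckdha, Bckdhb, Dbt, Bckdk, Ppm1k, Ivd, Mccc1 and Hibch. All 10 were found in the deposited table of 32623 genes, once each, and all 10 were among the 13964 genes that entered the test, which needed a mean FPKM of 0.5 or more. FPKM is the number of fragments mapped to a gene, scaled to its length and to the size of the library. RNA was sequenced from 3 myocardial samples of wild-type sham rats and 3 of wild-type rats whose left anterior descending coronary artery was occluded by ligation, a model of acute myocardial ischemia. Samples of both groups carry a time of 30 min and are described as coming from male rats after thoracotomy. The sources used here give neither strain nor age, nor where the tissue lay relative to the occluded territory. Nothing in the labels links the replicate numbers of the groups to a shared animal or day.

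Leucine, isoleucine and valine are the branched-chain amino acids. A transaminase first removes their amino group, BCAT2 in mitochondria and BCAT1 in the cytosol. The branched-chain keto acid dehydrogenase complex then decarboxylates the products irreversibly in the mitochondrion. The kinase BCKDK phosphorylates this complex and inactivates it, and the phosphatase PPM1K removes the phosphate and reactivates it. Below the complex the leucine, isoleucine and valine branches separate and end in acetyl-CoA, acetoacetate or succinyl-CoA. In the heart BCAT2 is the main transaminase, and loss of PPM1K is known to raise branched-chain keto acids.

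The libraries held 68529126 to 79591989 counts, and the members together took 50310 to 133051 of them. The labelled tissue was checked against its markers. All 8 cardiomyocyte genes were detected in each sample, with summed FPKM of 25145 to 42131 in sham and 11913 to 23056 in ischemia. The 4 atrial genes summed to 48341 and 39203 FPKM in sham 1 and sham 3 and to 214.9 in sham 2. In ischemia 1 to 3 they summed to 9610, 2078 and 1279. Nppa alone made 67.7 FPKM of the sum in sham 2, 2051 in ischemia 2 and 1251 in ischemia 3. Myl7, Myl4 and Sln were each lower in ischemia 2 and 3 than in sham 2. The 8 neutrophil and monocyte genes summed to 103.3 to 181.7 FPKM in sham and to 1253, 8495 and 1979 in ischemia 1, 2 and 3. Sham 1, also labelled as a male rat, had 161 counts on chromosome Y against 3218 to 8970 in the other samples. In edgeR 2 of 6 macrophage genes rose and 0 fell, with 4 higher and 2 lower at an unadjusted p under 0.05, and no cardiomyocyte, atrial, endothelial, fibroblast, red cell or adipocyte gene passed (3 cardiomyocyte genes and 1 fibroblast gene had an unadjusted p under 0.05). In tissue RNA, fewer cells of a type and less RNA per cell cannot be told apart, and the part of the lower cardiomyocyte and higher neutrophil and monocyte sums in the members' values was not tested.

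After 30 min of ischemia, 9 of the 10 members had negative log2 fold changes, and Bcat1 had a positive one. Over all tested genes 50.1% of the values were negative. Ppm1k, the phosphatase that switches the dehydrogenase complex on, was the only member that passed the edgeR test at an adjusted p under 0.05, and it was lower in ischemia. Thus 1 of 10 members was called lower, where 1.53% of all tested genes were called lower. No member was called higher, against 5.18% of all tested genes; no member was higher at an unadjusted edgeR p under 0.05 either, against 18.2%. DESeq2 called Ppm1k, Mccc1 and Hibch lower, 3 of 10 members against 12.5% of all tested genes, and 0 members higher against 14.8%. With limma on log2(FPKM + 0.1) and on log2(FPKM + 1), Ppm1k and Mccc1 were called lower, 2 of 10 members against 1.88% and 1.5% of all tested genes, and 0 members higher against 6.09% and 4.7%. At an unadjusted p under 0.05, Ppm1k, Mccc1, Hibch and Dbt were lower, 4 of 10 members against 14.2% of all tested genes. FPKM of Ppm1k, Mccc1, Hibch, Dbt and Ivd was lower in each ischemia sample than in each sham sample, 5 of 10 members against 15% of all tested genes. Leaving out both sham samples with high atrial markers, an alternative chosen after seeing the data, left 0 members called in edgeR. At an unadjusted p under 0.05, 5 members were then lower, against 5.17% of all genes tested, and Bcat1 was higher (log2 fold change 4.48, unadjusted edgeR p 0.022), against 7.33%. The median log2 fold change was -0.82 over the members and -0.0015 over all tested genes. The members' median was -0.31 without sham 2, -1.20 without ischemia 1 and -1.34 without both sham 1 and 3.

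**Figure D1:**
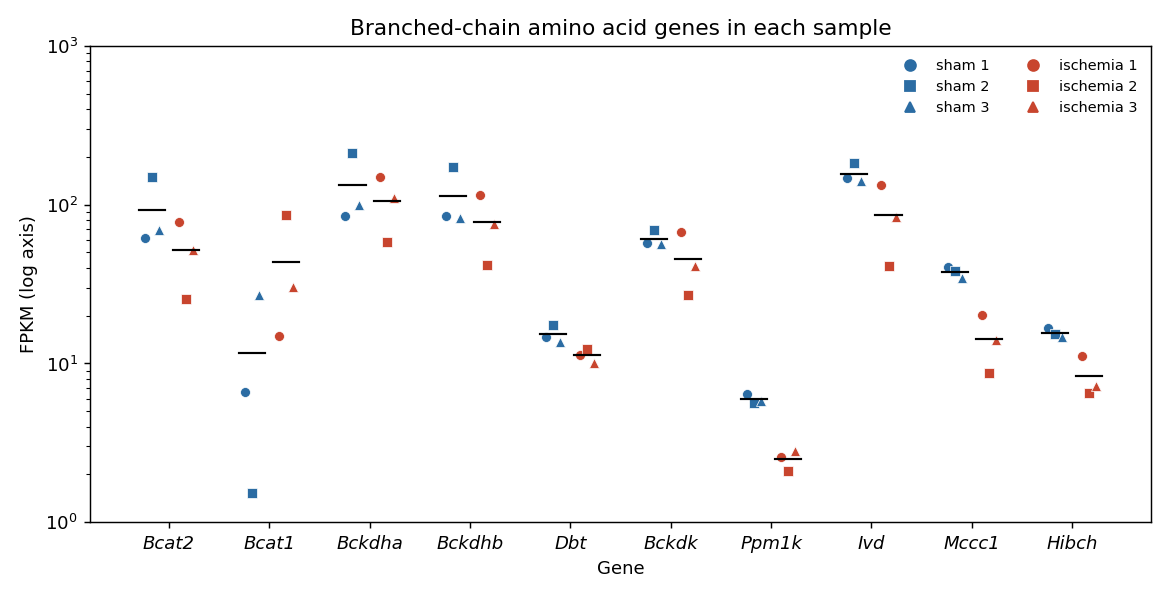
FPKM of the 10 members (log axis) in the 3 sham samples (blue) and the 3 ischemia samples (red), 1 marker shape per replicate number, with black lines at the group means. The groups are apart for Ppm1k, Mccc1, Hibch, Dbt and Ivd and overlap for the other members, and Bcat1 spans 1.52 to 86.1 FPKM.

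Levels per gene length were compared within the sham group. Mean FPKM was highest for Ivd (156 ± 22.3, SD, n = 3), followed by Bckdha (132 ± 69.8), Bckdhb (114 ± 52.0), Bcat2 (93.2 ± 48.5), Bckdk (61.1 ± 7.10), Mccc1 (37.8 ± 2.83), Hibch (15.6 ± 1.04), Dbt (15.3 ± 2.03), Bcat1 (11.7 ± 13.4) and Ppm1k (5.96 ± 0.43). Sample ranges of neighbours in this order overlapped except between Bckdk and Mccc1 and between Mccc1 and Hibch. The mRNA of the activating phosphatase was therefore the least abundant of the members by group mean in sham, and in ischemia its mean of 2.51 FPKM was again the lowest.

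The kinase and the phosphatase of the complex were examined as the regulators of its activity. Ppm1k (chromosome 4, 88694583 to 88718533, plus strand, in the coordinates of the deposited table, whose build is not stated) encodes the activating phosphatase. Its FPKM was 6.44, 5.61 and 5.82 in sham 1 to 3 and 2.57, 2.12 and 2.83 in ischemia 1 to 3. All ischemia values were under all sham values, and the sham samples lay within 1.15-fold of each other. Between 1146 and 1334 counts per sham sample and 431 to 577 per ischemia sample lay behind these values. Ppm1k had a log2 fold change of -1.33 ± 0.24 (SE; edgeR adjusted p 0.0372), a level 2.51-fold higher in sham. The exact permutation p was 0.1, the smallest that 3 against 3 samples can give. It was between -1.46 and -1.17 when each sample was left out in turn. The adjusted p was then over 0.05 without sham 1 (0.159), sham 2 (0.0872), sham 3 (0.134) or ischemia 3 (0.120), 0.142 with a covariate for the atrial genes, and 0.389 without both sham 1 and 3, with log2 fold changes of -1.37 and -1.47 in these last fits.

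Bckdk, the inactivating kinase, had FPKM of 57.8, 69.3 and 56.3 in sham 1 to 3 and of 67.8, 27.1 and 40.9 in ischemia 1 to 3. Ischemia 1 lay among the sham samples, whereas ischemia 2 and 3 were lower, so the groups overlapped. Bckdk (chromosome 1, 199351628 to 199356881, plus strand) had a log2 fold change of -0.53 ± 0.39 (SE; edgeR adjusted p 0.372). The value was -0.23 without ischemia 2, -0.30 without sham 2, -0.95 without ischemia 1 and -0.91 without both sham 1 and 3.

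The ratio of kinase to phosphatase FPKM was taken within each sample, since such a ratio does not depend on library scaling. Bckdk over Ppm1k was 8.97, 12.3 and 9.67 in sham 1 to 3 and 26.3, 12.8 and 14.5 in ischemia 1 to 3. The ratio was higher in each ischemia sample than in each sham sample, although ischemia 2 exceeded sham 2 only narrowly. The mean log2 ratio was 3.35 ± 0.24 (SD, n = 3) in sham and 4.08 ± 0.56 in ischemia, a difference of 0.73 with an exact two-sided permutation p of 0.1. With a pseudocount of 1 added to each FPKM the difference was 0.48. Without ischemia 1 the difference was 0.41, and without ischemia 2 it was 0.93.

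The transaminases catalyze the first, reversible step. Bcat2, the mitochondrial enzyme, had FPKM of 61.8, 149.1 and 68.8 in sham 1 to 3 and of 77.5, 25.6 and 51.6 in ischemia 1 to 3. Sham 2 was 2.28 times the mean of sham 1 and 3, and ischemia 1 was above both of these, so the groups overlapped. Bcat2 (chromosome 1, 101554642 to 101572080, plus strand) had a log2 fold change of -0.99 ± 0.59 (SE; edgeR adjusted p 0.275). Without sham 2 it was -0.30 and without ischemia 2 -0.64, whereas without ischemia 1 it was -1.41 and without both sham 1 and 3 -1.82.

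Bcat1, the cytosolic enzyme, had FPKM of 6.57, 1.52 and 26.9 in sham 1 to 3 and of 14.9, 86.1 and 30.1 in ischemia 1 to 3. The sham samples spanned 17.7-fold, and sham 3 was above ischemia 1. Bcat1 (chromosome 4, 179259308 to 179339795, minus strand) had a log2 fold change of 1.87 ± 1.03 (SE; edgeR adjusted p 0.246), the only positive value among the members. It was 1.02 without ischemia 2 and 3.32 without sham 3, without passing after adjustment in either case (edgeR adjusted p 0.562 and 0.155). Ischemia 2, in which Bcat1 was highest, also had the highest sum of neutrophil and monocyte markers (8495 FPKM), and 8 of 8 of these markers rose in ischemia. Sham 3, with the highest sham level, had the highest sums of the 3 measured fibroblast (954.1 FPKM) and 3 adipocyte markers (266.8 FPKM). The part of these cells in the Bcat1 values was not tested.

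The FPKM ratio of Bcat1 to Bcat2 was 0.106, 0.0102 and 0.391 in sham 1 to 3 and 0.193, 3.37 and 0.585 in ischemia 1 to 3. Only in ischemia 2 was the cytosolic transcript more abundant per length than the mitochondrial one. The groups overlapped, and the log2 difference of 3.27 gave an exact two-sided permutation p of 0.2. This difference was 1.83 without sham 2 and 2.16 without ischemia 2.

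**Figure D2:**
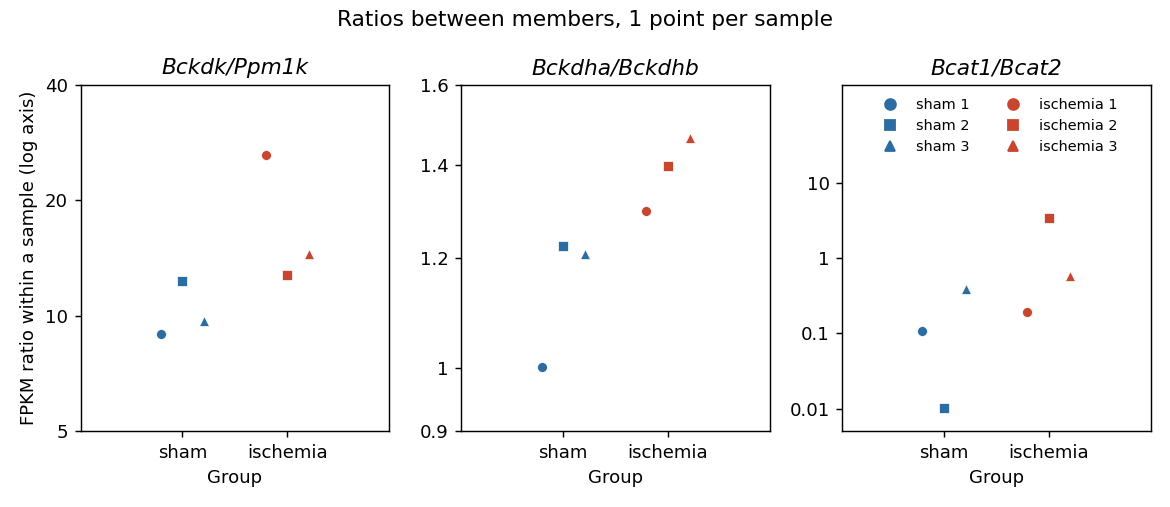
FPKM ratio of Bckdk to Ppm1k, Bckdha to Bckdhb and Bcat1 to Bcat2 (log axes), 1 point per sample, in sham (blue) and ischemia (red). The ischemia samples lie above the sham samples for Bckdk to Ppm1k (12.8 to 26.3 against 8.97 to 12.3) and for Bckdha to Bckdhb (1.297 to 1.465 against 1.001 to 1.225), and the groups overlap for Bcat1 to Bcat2.

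The dehydrogenase complex was described next. Bckdha and Bckdhb encode the alpha and beta subunits of its decarboxylase component. Bckdha had FPKM of 85.2, 212.5 and 99.1 in sham 1 to 3 and of 148.7, 58.6 and 110.3 in ischemia 1 to 3. Bckdhb had FPKM of 85.1, 173.5 and 82.0 in sham 1 to 3 and of 114.7, 41.9 and 75.3 in ischemia 1 to 3. For both genes sham 2 was the highest sample, ischemia 1 the next and ischemia 2 the lowest.

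For Bckdha (chromosome 1, 82423277 to 82452281, minus strand) the log2 fold change was -0.46 ± 0.56 (SE; edgeR adjusted p 0.585). For Bckdhb (chromosome 8, 91464229 to 91656134, plus strand) it was -0.69 ± 0.54 (edgeR adjusted p 0.395). Among single samples left out, sham 2 moved both the most: without it they were 0.24 and -0.0765. Without both sham 1 and 3 they were -1.30 and -1.46. Without ischemia 2 they were -0.14 and -0.36, and without ischemia 1 they were -0.79 and -1.09. Bckdha was also -0.74 without sham 1 and -0.70 without sham 3. Sham 2 was 2.31 and 2.08 times the mean of sham 1 and 3 for these genes, and it was the sham sample with atrial markers of 214.9 FPKM against 39203 and 48341 and with the highest cardiomyocyte sum. The part of atrial tissue in the spread of these genes among sham samples was not tested.

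The balance of the subunits was taken per length. Bckdha over Bckdhb was 1.001, 1.225 and 1.209 in sham 1 to 3 and 1.297, 1.398 and 1.465 in ischemia 1 to 3. This small shift toward the alpha subunit was found in each ischemia sample relative to each sham sample, with a log2 difference of 0.28 and an exact two-sided permutation p of 0.1. It stayed between 0.19 and 0.33 when each sample was left out.

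Dbt encodes the transacylase that forms the core of the complex. Its FPKM was 14.6, 17.5 and 13.6 in sham 1 to 3 and 11.3, 12.3 and 10.1 in ischemia 1 to 3. The ischemia samples were all lower, in the narrowest ischemia range of any member (1.21-fold). Dbt (chromosome 2, 219563783 to 219592650, plus strand) had a log2 fold change of -0.56 ± 0.22 (SE; edgeR adjusted p 0.141), of -0.32 without sham 2 and of -0.96 without both sham 1 and 3. Per length, Bckdha was 5.83 to 12.1 times as abundant as Dbt in sham and 4.78 to 13.1 times in ischemia. Dld, the third component, which the pyruvate dehydrogenase complex shares, had a log2 fold change of -0.59 ± 0.19 (SE, edgeR adjusted p 0.0936). It did not pass in edgeR and passed with DESeq2 (adjusted p 0.00842), 1 of 19 alternative runs. Its FPKM was lower in each ischemia sample (36.8 to 51.8) than in each sham sample (54.6 to 71.5).

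Ivd and Mccc1 act in the leucine branch. Ivd, isovaleryl-CoA dehydrogenase, had FPKM of 146.7, 181.9 and 140.4 in sham 1 to 3 and of 132.9, 41.1 and 84.1 in ischemia 1 to 3. Ischemia 1 was just under the lowest sham sample, and ischemia 2 was 3.23-fold lower than ischemia 1. Ivd (chromosome 3, 110669312 to 110690173, plus strand) had a log2 fold change of -0.95 ± 0.47 (SE; edgeR adjusted p 0.208), and of -0.59 without ischemia 2.

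Mccc1 (chromosome 2, 122550775 to 122690617, minus strand), the biotin-containing subunit of methylcrotonyl-CoA carboxylase, had FPKM of 40.4, 38.2 and 34.7 in sham 1 to 3 and of 20.1, 8.74 and 14.1 in ischemia 1 to 3. The sham samples lay close together, and all ischemia samples were lower. Its log2 fold change of -1.48 ± 0.35 (SE) was the lowest of the members, with an edgeR adjusted p of 0.0551. The adjusted p was 0.00139 with DESeq2, 0.0415 with limma on log2(FPKM + 0.1) and 0.0266 in edgeR without ischemia 1, and 0.0574 to 0.172 without any other single sample. Its partner subunit Mccc2 overlapped between the groups, with a log2 fold change of -0.78 ± 0.62 (SE; edgeR adjusted p 0.397) that was -0.36 without ischemia 2, -0.37 without sham 2, -1.48 without ischemia 1 and -1.38 without both sham 1 and 3. Mccc1 over Mccc2 was 0.739, 0.442 and 0.656 in sham 1 to 3 and 0.282, 0.603 and 0.399 in ischemia 1 to 3, with overlapping groups and an exact two-sided permutation p of 0.2.

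Hibch (chromosome 9, 53446194 to 53526728, minus strand), which hydrolyses 3-hydroxyisobutyryl-CoA in the valine branch, had FPKM of 16.7, 15.4 and 14.7 in sham 1 to 3 and of 11.2, 6.50 and 7.17 in ischemia 1 to 3. All ischemia samples were lower than all sham samples. Its log2 fold change was -0.9997 with an SE of 0.278 and an edgeR adjusted p of 0.0748. It passed with DESeq2 (adjusted p 0.00893) and in edgeR without ischemia 1 (0.0257), 2 of 19 alternative runs. The edgeR adjusted p was 0.123 to 0.213 without any other single sample and 0.216 with the atrial covariate.

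The other genes of the pathway were taken from a list, of which 16 are described here, all of them tested. Their median log2 fold change was -0.79, and -0.51 without ischemia 2 and -1.19 without both sham 1 and 3. In the edgeR test 1 of 16 was called lower, against 1.53% of all tested genes, and 0 higher. At an unadjusted p under 0.05, 5 were lower, against 14.2%, and 0 higher. That count went from 1 without ischemia 3, against 7.62% of all genes tested, to 10 without ischemia 1, against 19.1%. DESeq2 called 3 of the 16 lower, against 12.5% of all tested genes, and 0 higher. FPKM was lower in each ischemia sample than in each sham sample for 7 of the 16, against 15% of all tested genes. The called gene was Mmut, methylmalonyl-CoA mutase, which makes succinyl-CoA from methylmalonyl-CoA in the propionyl-CoA route of isoleucine and valine. Its FPKM was 22.4, 18.2 and 19.3 in sham 1 to 3 and 11.01, 5.73 and 7.30 in ischemia 1 to 3, and no ischemia sample reached a sham sample. Mmut had a log2 fold change of -1.39 ± 0.29 (SE; edgeR adjusted p 0.0455). The adjusted p was 0.0545 to 0.165 in 5 of the 6 edgeR fits that left out a sample, and 0.0176 without ischemia 1. Mmut log2 fold changes were -1.48 to -1.16 in those 5 fits and -1.71 without ischemia 1.

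Near Mmut in the same route, Mcee, methylmalonyl-CoA epimerase, had a log2 fold change of -1.37 ± 0.50 (SE; edgeR adjusted p 0.123), and Pcca, the biotin-containing subunit of propionyl-CoA carboxylase, had -1.08 ± 0.42 (edgeR adjusted p 0.134). Klf15, a transcription factor known to promote branched-chain amino acid catabolism in the heart, had FPKM of 19.9, 24.3 and 17.5 in sham 1 to 3 and of 13.9, 3.31 and 9.02 in ischemia 1 to 3. In these 3 genes each ischemia sample was below each sham sample, and none passed in the edgeR test of all samples (Klf15 log2 fold change -1.32 ± 0.54, SE; edgeR adjusted p 0.153). Mcee passed with DESeq2 (adjusted p 0.0361) and Pcca in edgeR without ischemia 1 (adjusted p 0.0493), for each gene the only 1 of 19 alternative runs. Acadsb, the short/branched-chain acyl-CoA dehydrogenase of the isoleucine branch, overlapped between the groups (-0.94 ± 0.42, edgeR adjusted p 0.174), was -0.51 without sham 1 and was 0.0047 without both sham 1 and 3. Slc25a44, the mitochondrial carrier of branched-chain amino acids, overlapped as well, with a log2 fold change of -0.21 that was -0.11 without ischemia 3 and -0.32 without ischemia 2.

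**Figure D3:**
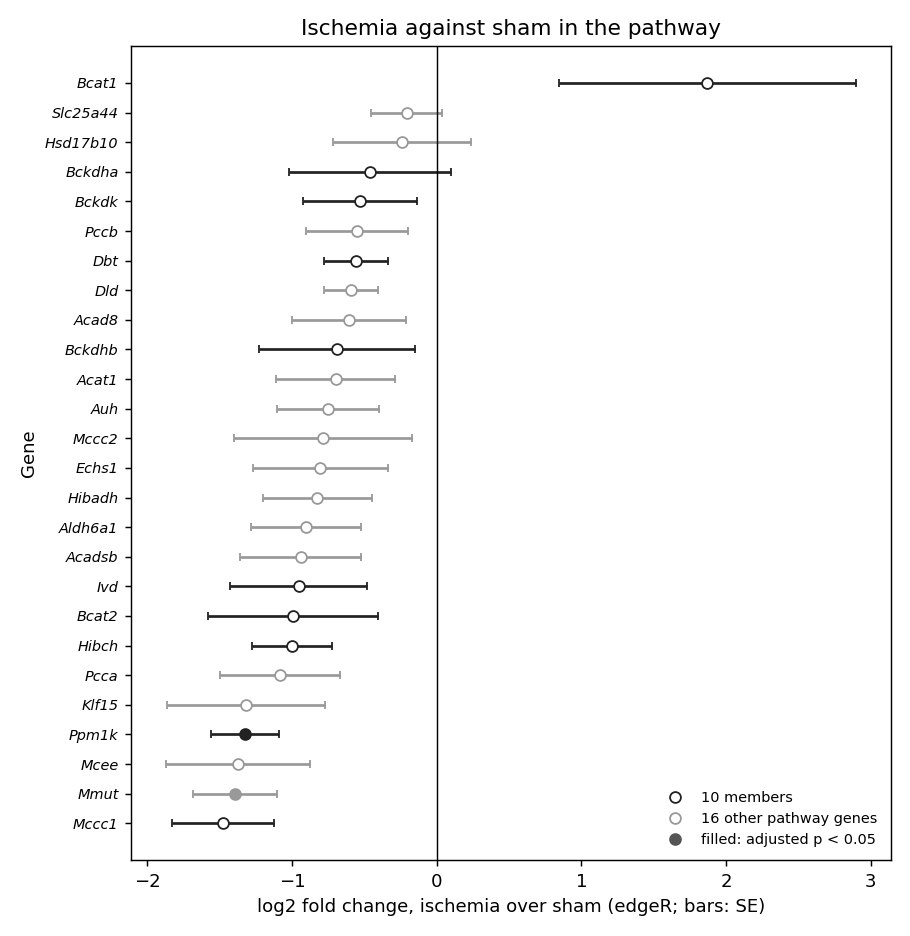
Log2 fold change of ischemia over sham from edgeR with SE bars for the 10 members (black) and 16 other genes of the pathway (grey), n = 3 per group, ordered by value. Filled points are Ppm1k and Mmut, which had adjusted p-values of 0.0372 and 0.0455, and Mccc1 has the lowest value at -1.48.

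Upstream sequences of Mccc1, Hibch and Mmut are shown because their mRNAs were low in all ischemia samples and because Klf15, in the same list, binds CACCC-type elements as a Kruppel-like factor. Each is the 250 bases before the annotated start, read along the gene from the RefSeq promoter table of build GRCr8, with CACCC or its complement GGGTG in capitals. The table held 8 of the 10 members, without Bckdha and Ppm1k, and 15 of the 16 other genes, without Mccc2. The Mccc1 sequence is chr2:120779242-120779491, that of Hibch chr9:56161797-56162046 and that of Mmut chr9:27454124-27454373, each on the minus strand.
Mccc1: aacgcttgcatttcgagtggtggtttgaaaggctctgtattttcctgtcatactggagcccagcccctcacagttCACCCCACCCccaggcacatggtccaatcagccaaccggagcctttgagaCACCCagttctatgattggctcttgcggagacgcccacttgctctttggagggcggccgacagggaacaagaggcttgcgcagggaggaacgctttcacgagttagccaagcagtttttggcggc
Hibch: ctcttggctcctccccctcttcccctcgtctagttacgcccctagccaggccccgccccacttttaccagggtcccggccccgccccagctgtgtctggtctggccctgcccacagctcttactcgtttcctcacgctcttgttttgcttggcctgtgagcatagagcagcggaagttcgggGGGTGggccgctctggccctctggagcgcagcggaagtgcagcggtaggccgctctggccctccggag
Mmut: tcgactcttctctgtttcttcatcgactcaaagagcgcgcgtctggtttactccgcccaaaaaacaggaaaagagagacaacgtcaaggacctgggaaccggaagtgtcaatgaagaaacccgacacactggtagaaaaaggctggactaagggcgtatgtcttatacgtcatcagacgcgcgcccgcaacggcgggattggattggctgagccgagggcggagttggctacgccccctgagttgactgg

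The motif occurred 3 times upstream of Mccc1, where the first 2 occurrences stand side by side, 1 time upstream of Hibch and 0 times upstream of Mmut. On either strand it was found in all 8 members with a sequence and in 10 of the 15 other pathway genes, against 49.2% of all 33469 promoters of the same length. The E-box CACGTG was found in 0 of the 8 members, in 1 of the 15 other genes (Klf15) and in 5.59% of all promoters. These are matches of letters and not measured binding. Base composition was not taken into account (GC 56.4% for Mccc1, 66.4% for Hibch and 54.4% for Mmut). The part of Klf15 in these genes was not tested.

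**Figure D4:**
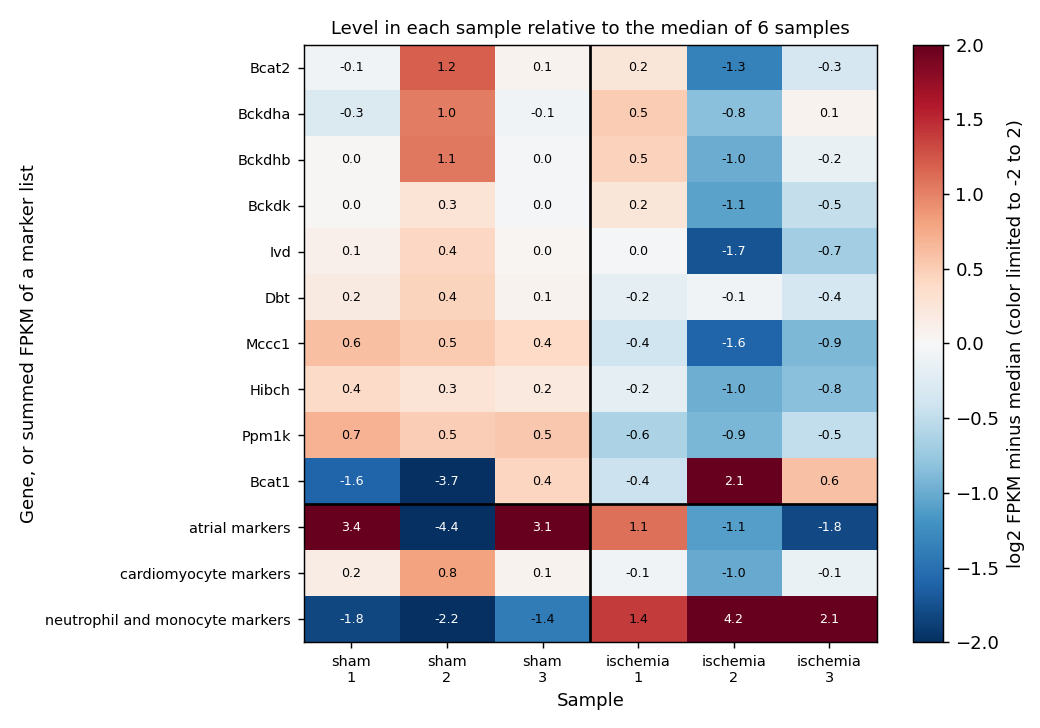
Log2 FPKM of each member, and log2 of the summed FPKM of the atrial, cardiomyocyte and neutrophil and monocyte markers, in each sample minus the median of the 6 samples (color limited to -2 to 2, the number in each cell is the unlimited value). Bcat2, Bckdha and Bckdhb are highest in sham 2, Mccc1, Hibch, Ppm1k, Dbt and Ivd are higher in all sham samples than in all ischemia samples, and most members are lowest in ischemia 2.

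Among themselves the members showed patterns over the 6 samples that did not all follow the groups. Ischemia 2 was the lowest sample for 8 of the 10 members, and sham 2 was the highest for 6. Likeness was measured as the root-mean-square distance between centred log2 CPM profiles, where CPM is the count scaled to library size. Bcat2 and Bckdhb were each other's nearest member (distance 0.175), and Bckdhb was the nearest to Bckdha (0.177). Ppm1k and Hibch were each other's nearest (0.275). Bcat1 was 2.04 from its nearest member, Dbt. Outside the members, the genes nearest to Bckdha were Ldhb (0.052), Uqcrc1 (0.098), Hadha (0.106), Got2 (0.115) and Mavs (0.119), which encode lactate dehydrogenase B, a core protein of respiratory complex III, the alpha subunit of the mitochondrial trifunctional protein, mitochondrial aspartate aminotransferase and the mitochondrial antiviral signaling protein.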

How the data were processed

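Total RNA of rat myocardium was sequenced by the submitters with a stranded total RNA kit. Their processing notes name STAR and HTSeq, without versions; the genome build and the counting rule for overlapping genes are not given in the sources used here. The authors deposited raw read counts per gene, not normalized, and FPKM values computed by them, with most genes without reads set to a small constant. Counts were tested with the quasi-likelihood test of edgeR 4.0.16 in R 4.3.3 (TMM scaling, ischemia against sham, 3 samples each, no covariate) over genes whose mean FPKM reached 0.5. P-values were two-sided, Benjamini-Hochberg adjusted across the tested genes and called under 0.05, and SE came from the F statistic. They measure the spread between these samples only. Ratios were compared with exact permutation tests of log2 FPKM. Alternatives used limma 3.58.1 on log2(FPKM + 0.1) or log2(FPKM + 1), DESeq2 1.42.0, other scalings and filters, removal of the mitochondrial genome, robust estimation, a replicate block, an atrial covariate and single samples left out. Members and lists were chosen with earlier results of these data known. Named were all members, called pathway genes and the 4 others with the largest absolute log2 fold change. Dld, Mccc2, Slc25a44, Hsd17b10 and the atrial markers Nppa, Myl7, Myl4 and Sln were added after their values were seen. A gene of the pathway list is not reported here, and the counts and median of the list do not cover it. Python 3.11.15 and matplotlib 3.10.9 drew the figures. Replicates of a group differed beyond sampling noise. Cell type markers not found under their symbols were 1 endothelial, 1 fibroblast and 1 red cell gene.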

Additional observations from a re-analysis of the deposited data

How the results depend on the processing

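No member changed the sign of its log2 fold change in any alternative run, with the exception of Bckdha without sham 2. With a filter of a mean FPKM of at least 5, Ppm1k was not tested, and the 1 member called lower was Mccc1 (edgeR adjusted p 0.0413). The count of members called lower, 1, was 3 with DESeq2, 2 and 2 with limma at pseudocounts of 0.1 and 1, and 0 with the atrial covariate or without both sham 1 and 3, an alternative chosen after seeing the data in which the lone sham sample is assumed to vary like the ischemia samples; leaving out single samples gave 0 to 3. For the other pathway genes, 1 was called lower, against 3 with DESeq2 and 0 with total-count scaling, no filter, the atrial covariate or without both sham 1 and 3, and 0 to 2 without single samples. Over all genes, 214 were called lower and 723 higher, a share of 77.2% higher. DESeq2 called 1742 and 2071 (54.3% higher), total-count scaling 86 lower, and no filter 93 lower. Without single samples the counts were 0 to 1115 lower and 0 to 1495 higher. The atrial covariate and the removal of both sham 1 and 3 left 0 lower and 0 higher, with 2732 and 1707 genes at an unadjusted p under 0.05. With the replicate number as a block, 0 members, 0 other pathway genes and 0 genes in all passed in edgeR, with 3349 at an unadjusted p under 0.05, and Ppm1k was -1.34. Same-numbered samples had deviations from their group means with correlations of -0.056, -0.094 and -0.20. Differently numbered samples had a mean correlation of 0.055. With 3 samples per group these correlations cannot decide whether the numbers pair the samples. Without single samples Bckdha ranged from -0.79 to 0.24 and Hsd17b10 from -0.48 to 0.35. Without both sham 1 and 3 Acadsb was 0.0047. The cause of these changes was not tested.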
